A study of Mus musculus with 32 samples.

Results

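Gene expression in the basolateral amygdala of adult control mice was compared between day 21 and day 1. The libraries were chosen by their titles, which name the age class, the treatment and the day, and they are 8 of the 32 libraries in the series, 4 at day 21 and 4 at day 1. The series measured polyadenylated RNA from mice of 2 age classes, adolescent and adult, each as controls or after social defeat, a confrontation with an aggressor, with 4 libraries in each of 8 groups. The adult controls of day 21 (Adu_ctrl_Day21) and of day 1 (Adu_ctrl_Day1) are both labelled as controls without defeat and differ, by label, only in the day. Adolescent controls (Ado_ctrl_Day21 and Ado_ctrl_Day1) and defeated adults (Adu_sds_Day21 and Adu_sds_Day1) are used where a day difference is set against that of the adult controls. The design text names the ages of 6 and 9 weeks without tying either to an age class, and the start of the day count is not given. The labels give no strain, sex or handling batch for these groups. Nothing says whether the 4 libraries of a group came from separate animals, so the p-values measure only a spread between libraries. That spread was taken within groups and pooled over all 32 libraries in a joint fit of the 8 groups. All libraries of a group share its day, so day and any batch of dissection, handling or library preparation cannot be told apart.

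The basolateral amygdala holds mainly excitatory projection neurons with local interneurons, and takes part in fear learning and in the memory of aversive events. Its neurons respond to synaptic activity by rapidly transcribing immediate early genes, a set that includes transcription factors of the Fos, Jun, Egr and Nr4a families and the synaptic gene Arc, and whose transcripts are short-lived. Such genes are widely used to mark recently active cells, and they also respond to growth factors, stress hormones, handling and the time of day.

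The libraries of both groups were alike in depth. The 4 day 21 libraries held 66479735 to 69516997 counts, and the 4 day 1 libraries 63736712 to 70774460, against 53885799 to 82208892 over all 32. Mitochondrially encoded transcripts took 6.43 to 7.39% of counts at day 21 and 5.08 to 7.44% at day 1. Rank correlations between libraries over all tested genes were 0.983 to 0.986 within a group and 0.980 to 0.986 between the days. CPM here means counts scaled to 1e+06 per library with TMM factors. Malat1, a nuclear noncoding RNA, was at 319 to 391 CPM in the day 21 libraries and at 399 to 536 CPM in the day 1 libraries, without overlap (log2 difference -0.41 ± 0.18, adjusted p = 0.294 in edgeR's quasi-likelihood test), and its part in the differences given here was not tested. Excitatory neurons were present in both, with Slc17a7, the vesicular glutamate transporter of cortical and amygdalar projection neurons, at 946 to 1098 CPM at day 21 and at 810 to 1201 CPM at day 1. Ttr, the choroid plexus transcript, stood apart in single libraries: it was at 85.3, 2.17, 415 and 2.12 CPM in day 21 replicates 1 to 4 and at 2342, 10.3, 6.51 and 14.7 CPM in day 1 replicates 1 to 4.

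In the adult controls 204 of 23778 tested genes (0.858%) differed between the days at an adjusted p under 0.05, by edgeR's quasi-likelihood test with Benjamini-Hochberg adjustment. Of these, 152 (0.639% of tested genes) were higher at day 21 and 52 (0.219%) were lower. At an unadjusted p under 0.05, 1594 genes were higher (6.7%) and 1474 lower (6.2%). In 969 genes (4.08%) all 4 day 21 libraries lay above all 4 day 1 libraries, and in 665 (2.8%) all 4 lay below. Most called differences were small: the median size was 0.41 on the log2 scale among the 152 higher genes, of which 19 reached a 2-fold difference. Among the 52 lower genes 8 did. The median log2 difference of all tested genes was -0.01. The count of calls moved with single libraries. Leaving out day 21 replicate 1 gave 315 calls, and leaving out day 21 replicate 2, 3 or 4 gave 108, 101 and 88. Leaving out day 1 replicate 1, 2, 3 or 4 gave 117, 153, 115 and 191. All 204 genes kept the sign of their difference in each of these 8 fits. Leaving out the 11 libraries of the series above 100 CPM of Ttr, which include day 21 replicate 3 and day 1 replicate 1, left 24 calls.

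Among the gene lists, that of the immediate early genes held the most genes called higher. Most of the higher genes, 125 of 152, were in neither this list nor that of endothelial and barrier genes. Of 36 listed members, all of them tested, 19 rose at day 21 and 0 fell, against the background of 0.639% of tested genes called higher. At an unadjusted p under 0.05, 29 were higher and 1 lower, against 6.7% and 6.2% of tested genes. In 27 of the 36 all 4 day 21 libraries lay above all 4 day 1 libraries, against 4.08% of tested genes. The median log2 difference of the 36 was 0.75. Their summed level was 2653, 3057, 2603 and 2592 CPM in day 21 replicates 1 to 4, against 1809, 1864, 1759 and 1606 CPM in day 1 replicates 1 to 4. The sums of the 2 days did not overlap. Markers of neurons are set beside these values. None of 27 pallial excitatory neuron markers and none of 27 interneuron markers was called by edgeR's quasi-likelihood test, against 0.858% of tested genes. At an unadjusted p under 0.05, 1 of the excitatory markers was higher and 0 were lower. Of the interneuron markers 2 were higher and 1 was lower, against 6.7% and 6.2% of tested genes. With so few calls over all genes, 0 of 27 does not measure the share of neurons, whose part was not tested.

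Among the transcription factors, the Egr family of zinc finger proteins rose as a whole. Egr4 (ENSMUSG00000071341, chromosome 6) had the smallest adjusted p of any gene in the comparison. It was at 114, 127, 120 and 99.3 CPM in day 21 replicates 1 to 4 and at 59.7, 56.5, 53 and 52.7 CPM in day 1 replicates 1 to 4. Each day 21 library was well above each day 1 library. The log2 difference was 1.05 ± 0.12 (SE from the fit of all 32 libraries, n = 4 each, adjusted p = 2.97e-05 in edgeR's quasi-likelihood test). Egr1, an early activator of plasticity genes, was at 399, 472, 374 and 368 CPM at day 21 and at 231, 231, 228 and 202 CPM at day 1 (0.85 ± 0.14, adjusted p = 0.00255). Egr2 had 22.4, 24.5, 18.8 and 16.4 CPM at day 21, against 8.08, 9.23, 8.91 and 6.95 CPM at day 1 (1.31 ± 0.31, adjusted p = 0.035). The lowest day 21 library of either gene exceeded the highest day 1 library. Egr3 changed least, with 181, 205, 187 and 194 CPM at day 21 and 156, 150, 156 and 137 CPM at day 1 (0.36 ± 0.06, adjusted p = 0.0035). Nab2, a corepressor that binds Egr proteins and is not on the list, was also higher, by 0.34 on the log2 scale (adjusted p = 0.0471), as was Srf, the serum response factor that drives many early genes, by 0.25 ± 0.05 (adjusted p = 0.0203). Both were picked out after their values were seen.

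The AP-1 factors, dimers of Fos and Jun proteins, rose in most of their members. Fos (ENSMUSG00000021250, chromosome 12), the classic activity marker, was at 56.5, 64.0, 49.0 and 41.7 CPM in day 21 replicates 1 to 4 and at 24.4, 22.0, 20.1 and 20.1 CPM in day 1 replicates 1 to 4. The days did not overlap, and the log2 difference was 1.29 ± 0.31 (adjusted p = 0.0375 in edgeR's quasi-likelihood test). Fosb, whose product accumulates with repeated activity, had 46.2, 54.4, 50.8 and 53.6 CPM at day 21, against 31.7, 30.7, 25.9 and 23.2 CPM at day 1 (0.88 ± 0.13, adjusted p = 0.00137). Fosl2 had 72.4, 86.3, 81.3 and 83.1 CPM at day 21, against 51.0, 53.6, 44.1 and 41.3 CPM at day 1 (0.77 ± 0.10, adjusted p = 0.000461). In both genes every day 21 library lay above every day 1 library. Junb rose to 143, 161, 129 and 115 CPM at day 21, against 71.3, 72.9, 67.7 and 66.1 CPM at day 1 (0.98 ± 0.17, adjusted p = 0.0041). Jun did not pass, with overlapping values of 60.9 to 78.5 CPM at day 21 and 45.2 to 67.9 CPM at day 1 (log2 difference 0.36, adjusted p = 0.122). Atf3, a stress-induced partner of Jun, was low in both groups and did not pass either, at 2.08 to 2.97 CPM at day 21 and 1.04 to 1.37 CPM at day 1 (1.12 ± 0.32, adjusted p = 0.0935).

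Genes more restricted to neurons, and the orphan nuclear receptors of the Nr4a family, moved the same way. Arc (chromosome 15), which makes a protein that remodels excitatory synapses, was at 300, 361, 246 and 248 CPM in day 21 replicates 1 to 4 and at 123, 127, 137 and 120 CPM in day 1 replicates 1 to 4. The log2 difference was 1.19 ± 0.28, with an adjusted p of 0.0367 by edgeR's quasi-likelihood test. Npas4, a transcription factor induced by calcium entry in neurons, had 51.7, 55.2, 48.1 and 45.9 CPM at day 21, against 24.8, 25.3, 28.5 and 22.9 CPM at day 1 (0.99 ± 0.19, adjusted p = 0.00634). Neither gene overlapped between the days. Nr4a1 had 172, 192, 168 and 141 CPM at day 21, against 83.2, 93.2, 100.1 and 96.7 CPM at day 1 (0.85 ± 0.19, adjusted p = 0.0221). Nr4a3 had 79.6, 89.4, 84.1 and 87.5 CPM at day 21, against 53.1, 57.0, 43.0 and 34.7 CPM at day 1 (0.86 ± 0.15, adjusted p = 0.00457). The remaining family member, Nr4a2, which also marks claustral and deep cortical neurons, did not pass, with overlapping values of 71.0 to 105 CPM at day 21 and 49.5 to 80.6 CPM at day 1 (0.33, adjusted p = 0.435).

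Early genes shared with other cell types rose as well. Klf2, a flow-responsive factor of endothelial cells that is also expressed by other cells, had 14.4, 16.9, 15 and 11.9 CPM at day 21, against 4.70, 6.47, 5.56 and 5.73 CPM at day 1. Its difference of 1.37 ± 0.24 (adjusted p = 0.00422 in edgeR's quasi-likelihood test) was the largest on the list. Klf4, a related factor, had 4.58, 6.60, 7.39 and 4.33 CPM at day 21, against 2.81, 2.46, 1.95 and 1.71 CPM at day 1 (1.36 ± 0.26, adjusted p = 0.00796). Neither gene's days overlapped. Ier2, a nuclear early response protein, had 7.78, 9.82, 7.25 and 6.95 CPM at day 21, against 3.25, 4.15, 4.27 and 4.73 CPM at day 1 (0.96 ± 0.17, adjusted p = 0.00433). The remaining risers were Ccn1, a secreted matrix protein (1.13, adjusted p = 0.00492), Sik1, a kinase that restrains CREB coactivators (0.88, adjusted p = 0.0153), Gadd45b, a stress protein linked to DNA demethylation (0.73, adjusted p = 0.00492), and the clock gene Per1, described with the clock genes. In each of these 4 the days did not overlap.

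**Figure D1:**
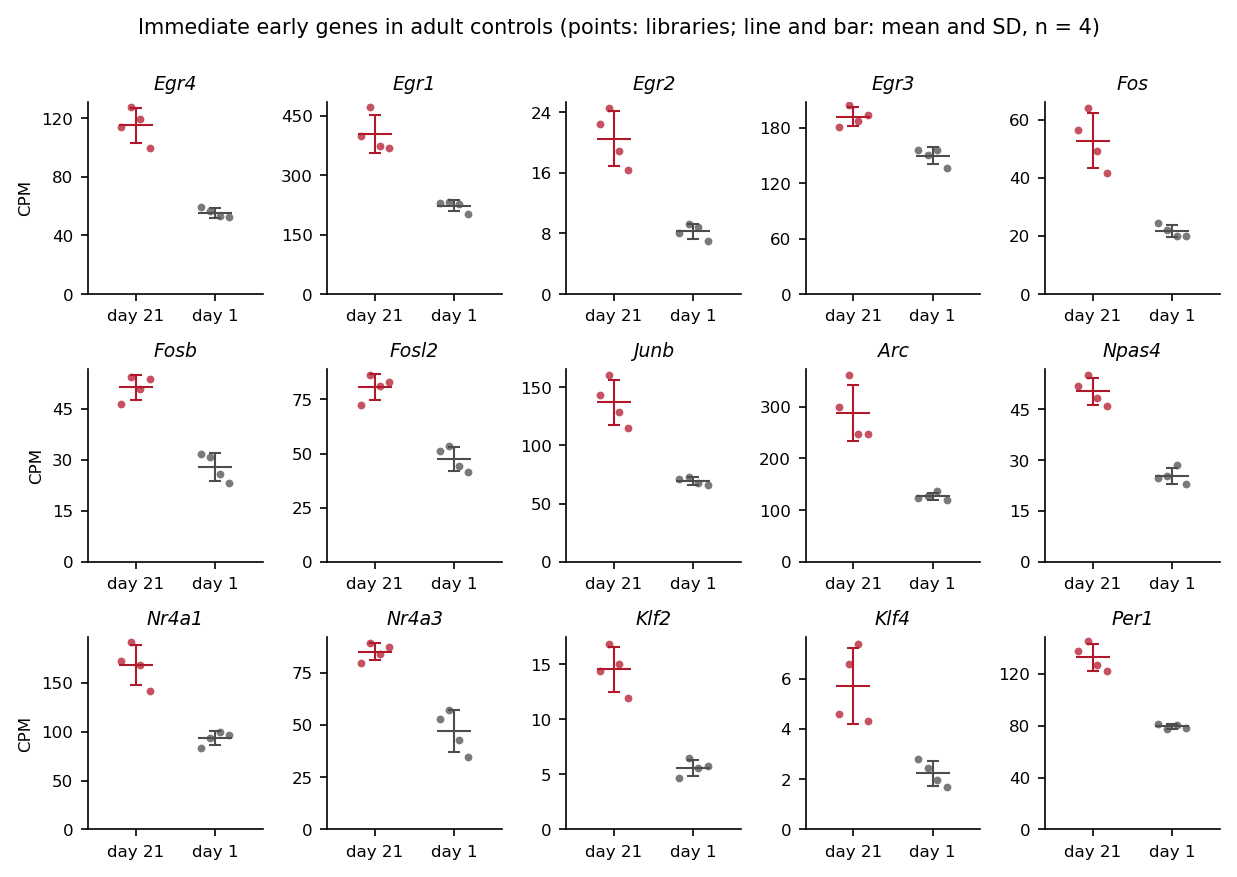
Level of 15 immediate early genes, in CPM on linear axes from 0, in adult controls of day 21 (left) and day 1 (right). Points are libraries and the line and bar are the mean and SD of 4 libraries. In each of the 15 genes all 4 day 21 points lie above all 4 day 1 points, and in Egr3, with the smallest log2 difference of them, they lie at 181 CPM or more at day 21 and 156 CPM or less at day 1.

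Members of the list that did not pass included slower and effector genes. Bdnf, the neurotrophin, was at 18 to 29 CPM at day 21 and 20.8 to 30.9 CPM at day 1 (log2 difference -0.13, adjusted p = 0.774 in edgeR's quasi-likelihood test). Homer1, a scaffold whose short form is activity-induced, differed by 0.16 (adjusted p = 0.551) and Nptx2, a secreted synaptic pentraxin, by 0.00 (adjusted p = 1). The days overlapped in all 3 genes. Inhba, the activin A subunit, had 9.01, 10.3, 13.5 and 21.1 CPM at day 21, against 19.4, 21.9, 17.8 and 18.3 CPM at day 1 (-0.52, adjusted p = 0.338), so that 3 of the day 21 libraries lay below all 4 day 1 libraries. Just short of the threshold were the phosphatase gene Dusp1 (0.72, adjusted p = 0.0571) and the antiproliferative gene Btg2 (0.82, adjusted p = 0.064), both with day 21 above day 1 in every library. Of the 19 called genes, 15 stayed past the threshold in each of the 8 fits that left out 1 library. Fos lost its call in all 8, with adjusted p up to 0.112. Arc and Egr2 lost theirs in 7, every fit but that without day 21 replicate 1, with adjusted p up to 0.12 and 0.107. Nr4a1 lost its call without day 21 replicate 2 or 3 or day 1 replicate 1 or 2, with adjusted p up to 0.0825. The number of members called ranged from 15 to 19 over those fits. It was 12 without the libraries above 100 CPM of Ttr, 22 in a fit of only these 8 libraries, and 2 with limma on log2(FPKM + 0.1).

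Promoter sequence was examined for the called genes as a description. RefSeq windows on GRCm38.p6, each from 250 bases before to 50 after a transcription start, were found for 14 of the 19 called immediate early genes, in 19 windows. The Egr motif GCGNGGGCG, searched on both strands, was in 6 of the 19 windows (31.6%), those of Fosb, Fosl2, Gadd45b, Klf2, Klf4 and Nr4a1, against 5.55% of all 32851 windows. The E-box CACGTG was in 4 (21.1%), those of Egr2, Gadd45b, Klf4 and Per1, against 7.15% of all windows. The full cyclic AMP response element TGACGTCA (1.79% of all windows), the AP-1 motif TGACTCA (5.2%) and the D-box TTATGTAA (0.938%) were in none of the 19, and GAANNTTC was in 1, that of Fosl2, against 7.86% of all windows. No overlap among these motifs was scored. The CArG box, the serum response factor motif, was added to the search after the data were seen; it was in 4 of the 19 windows, all of them overlapping windows of Egr2, against 1.63% of all windows. A match describes the letters in the window and was not tied to binding. The background windows were not matched for GC content. Transcripts of the listed early genes had a median of 54.3% GC, against 49.2% for all tested genes. The part of GC content in the motif shares was not tested. The Egr2 window that follows is shown because Egr2 and Srf were both called higher, with the CArG box in capitals, at chr10:67537316-67537615 on the plus strand.
Egr2: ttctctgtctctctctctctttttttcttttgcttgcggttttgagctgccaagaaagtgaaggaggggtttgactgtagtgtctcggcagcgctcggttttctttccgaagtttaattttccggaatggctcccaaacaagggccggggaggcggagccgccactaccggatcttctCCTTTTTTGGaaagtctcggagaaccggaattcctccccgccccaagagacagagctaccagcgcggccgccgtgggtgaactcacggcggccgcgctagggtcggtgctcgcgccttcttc

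Set against the other day comparisons, the immediate early gene differences of the adult controls stood apart from those of defeated adults. Over all genes, 220 (0.925%) were called between the days in adolescent controls and 144 (0.606%) in defeated adults. Of the 36 immediate early genes, adolescent controls had 3 higher at day 21 (Egr3 by 0.39, Fosb by 0.61 and Homer1 by 0.48 on the log2 scale) and 1 lower (Nr4a2, -0.85). The median of the 36 was 0.12 there, and 29 of them were above 0. Defeated adults had 0 called in either direction by edgeR's quasi-likelihood test, with a median of -0.32 and 7 of 36 above 0. The difference between the day effects of adult controls and defeated adults was tested for each gene and called in 148 genes (0.622%). Day effects are compared with their signs, so a fall counts as smaller than a rise, whatever its size. Among the 36, 20 were called with the larger day effect in adult controls, against 0.496% of tested genes, and 1 with the smaller one, against 0.126%. The last was Inhba (-1.43, adjusted p = 0.0383). This test shares its 8 adult control libraries with the main comparison, so its count is not separate support. The difference was 2.19 for Egr2, 2.09 ± 0.43 for Fos, 1.68 for Arc, 1.47 ± 0.17 for Egr4, 1.40 for Junb, 1.29 for Npas4 and 1.23 for Egr1. Against adolescent controls the day effect differed in 27 genes (0.114%), with 0.0883% of tested genes larger and 0.0252% smaller in adult controls. Of the 27, 4 were on the list, Ier2 by 1.45, Nr4a2 by 1.19 (adjusted p = 0.0492), Egr4 by 0.90 (adjusted p = 0.0279) and Per1 by 0.71, all larger in adult controls with signs kept. For Nr4a2 the called day difference was the fall in adolescent controls (-0.85). The count of 27 ranged from 4 to 50 with 1 library left out, and it was 0 without the libraries above 100 CPM of Ttr.

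The order of the group levels differed between controls and defeated adults. Fos averaged 52.8 CPM in adult controls of day 21 and 21.6 CPM in those of day 1. In defeated adults it averaged 23.7 CPM at day 21 and 41.4 CPM at day 1, the reverse order, and in adolescent controls 18.4 and 17.1 CPM at day 21 and day 1. Arc averaged 289 CPM at day 21 and 127 CPM at day 1 in adult controls, 181 and 255 CPM in defeated adults of day 21 and day 1, and 127 and 115 CPM in adolescent controls of day 21 and day 1. Egr4 averaged 115 and 55.5 CPM in adult controls of day 21 and day 1, and 78.1 and 104 CPM in defeated adults of day 21 and day 1. Defeated adults of day 21, at 64.1 to 84.4 CPM of Egr4, lay between the adult control groups, and those of day 1, at 96.6 to 121 CPM, overlapped the adult controls of day 21. In adolescent controls Egr4 averaged 45.1 CPM at day 21 and 40.6 CPM at day 1. For 31 of the 36 genes the day 21 adult control mean was the highest of the 8 groups of the series, whereas the day 1 adult control mean was the lowest of the 8 for 2.

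**Figure D2:**
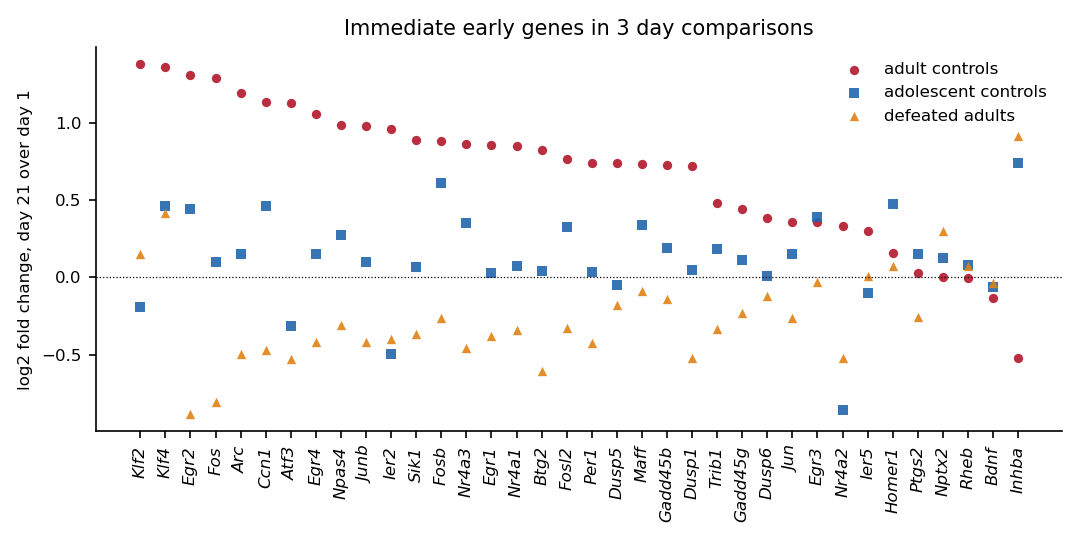
Log2 fold change of day 21 over day 1 (vertical axis) for each of the 36 immediate early genes (horizontal axis, ordered by adult controls) in adult controls (circles), adolescent controls (squares) and defeated adults (triangles). The medians are 0.75, 0.12 and -0.32, and 33 of the 36 circles and 29 of the 36 squares lie above 0, against 7 of the 36 triangles.

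Vascular genes formed a further group that was higher at day 21. Of 22 endothelial and barrier genes, all tested, 8 rose and 0 fell, against 0.639% of all tested genes called higher. All 22 had a difference above 0. Of them, 17 were higher at an unadjusted p under 0.05, against 6.7% of tested genes. In 13 all day 21 libraries lay above all day 1 libraries, against 4.08% of tested genes. The median log2 difference was 0.54. Summed over the list, day 21 replicates 1 to 4 held 1538, 1650, 1700 and 1687 CPM, and day 1 replicates 1 to 4 held 1395, 1393, 1381 and 1358 CPM, without overlap. In bulk tissue, fewer endothelial cells at day 1 and less RNA per cell there cannot be told apart.

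Receptors of endothelial growth signals led this group. Flt1 (ENSMUSG00000029648, chromosome 5), a receptor of vascular endothelial growth factor, was at 43.5, 48.3, 50.9 and 48.6 CPM in day 21 replicates 1 to 4 and at 18.2, 18.7, 25.8 and 28.2 CPM in day 1 replicates 1 to 4. Every day 21 library lay above every day 1 library (log2 difference 1.07 ± 0.19 with an adjusted p of 0.0041 by edgeR's quasi-likelihood test). Kdr, the main signalling receptor for the same factor, had 11, 12.8, 12.1 and 10.3 CPM at day 21, against 4.88, 7.01, 7.93 and 7.27 CPM at day 1 (0.77 ± 0.15, adjusted p = 0.0103). Tek, the angiopoietin receptor, had 10.7, 10.6, 9.44 and 12 CPM at day 21, against 4.80, 5.11, 6.16 and 7 CPM at day 1 (0.89 ± 0.17, adjusted p = 0.00634). The days did not overlap for either receptor. Of the junction genes, Cdh5, the endothelial cadherin, had 8.64, 9.47, 12.6 and 9.70 CPM at day 21, against 4.97, 4.09, 5.61 and 6.42 CPM at day 1 (0.94 ± 0.18, adjusted p = 0.00679). Pecam1, an adhesion molecule of endothelial contacts, rose by 0.76 (adjusted p = 0.0456). Cldn5, the tight junction claudin, did not pass, though its 27.9 to 29.5 CPM at day 21 lay above the 15.6 to 27.8 CPM of day 1 (0.48, adjusted p = 0.163).

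Transporters of the blood-brain barrier were higher too. The efflux pump gene Abcb1a rose by 0.72 (adjusted p = 0.0213 in edgeR's quasi-likelihood test), with 24.3 to 29.0 CPM at day 21 and 13.1 to 20.5 CPM at day 1. The organic anion transporter gene Slco1a4 rose by 0.56 (adjusted p = 0.0438) and Slc2a1, the glucose transporter of the barrier, by 0.51 (adjusted p = 0.0456), with no overlap between the days in either. Endothelial genes outside the list, chosen after their values were seen except for Cd93, showed the same direction. Cd93, a surface protein of endothelial cells, had 5.22, 4.84, 6.57 and 5.82 CPM at day 21, against 2.09, 2.65, 3.07 and 2.82 CPM at day 1 (1.08 ± 0.17, adjusted p = 0.00283). Eng, a coreceptor for transforming growth factor beta, rose by 0.83 (adjusted p = 0.0117), and the endothelial early gene Apold1 by 1.03 (adjusted p = 0.0319). Nostrin, a trafficking protein of endothelial nitric oxide synthase, rose by 1.24 (adjusted p = 0.0284).

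Mural cell and blood markers were less uniform. Among 14 pericyte and smooth muscle markers 1 was called higher, against 0.639% of tested genes, and 0 lower. It was Rgs5, a pericyte regulator of G protein signals. It had 65.1, 68.3, 70.5 and 65.4 CPM at day 21, against 33.4, 39.9, 46.4 and 46.1 CPM at day 1 (0.70 ± 0.13, adjusted p = 0.00679 in edgeR's quasi-likelihood test). The pericyte receptor gene Pdgfrb differed by -0.07 (adjusted p = 0.858) and overlapped, and the median of the 14 was 0.24. None of 8 blood and red cell genes was called. At an unadjusted p under 0.05, 4 were higher and 1 was lower, against 6.7% and 6.2% of tested genes. Their summed level was 360.0 to 400.5 CPM at day 21, above the 280.8 to 340.4 CPM of day 1, and the median was 0.64. The part of blood retained in the tissue in the endothelial differences was not tested. Neither the adolescent control nor the defeated adult day comparison called any of the 22 endothelial genes, and neither test of a difference between day effects did, with medians of 0.03 in adolescent controls and 0.17 in defeated adults. For 11 of the 22 the day 21 adult control mean was the highest of the 8 groups, and for 12 the day 1 mean was the lowest.

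The endothelial calls depended more on single libraries than those of the immediate early genes. Flt1, Kdr, Tek and Cdh5 passed in each of the 8 fits that left out 1 library. The number of the 22 called was 6, 4, 4 and 4 without day 21 replicate 1, 2, 3 or 4, and 4, 4, 5 and 11 without day 1 replicate 1, 2, 3 or 4. Slco1a4 and Pecam1 lost their calls in every such fit but that without day 1 replicate 4, with adjusted p up to 0.136 and 0.138. Slc2a1 lost its call in 6 and Abcb1a in 5, those without day 21 replicate 2, 3 or 4 or day 1 replicate 1 or 2 for both, and day 1 replicate 3 for Slc2a1, with adjusted p up to 0.15 and 0.0856. Without the libraries above 100 CPM of Ttr, 0 of the 22 were called, while their median log2 difference was 0.46, against 0.54 with all libraries.

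**Figure D3:**
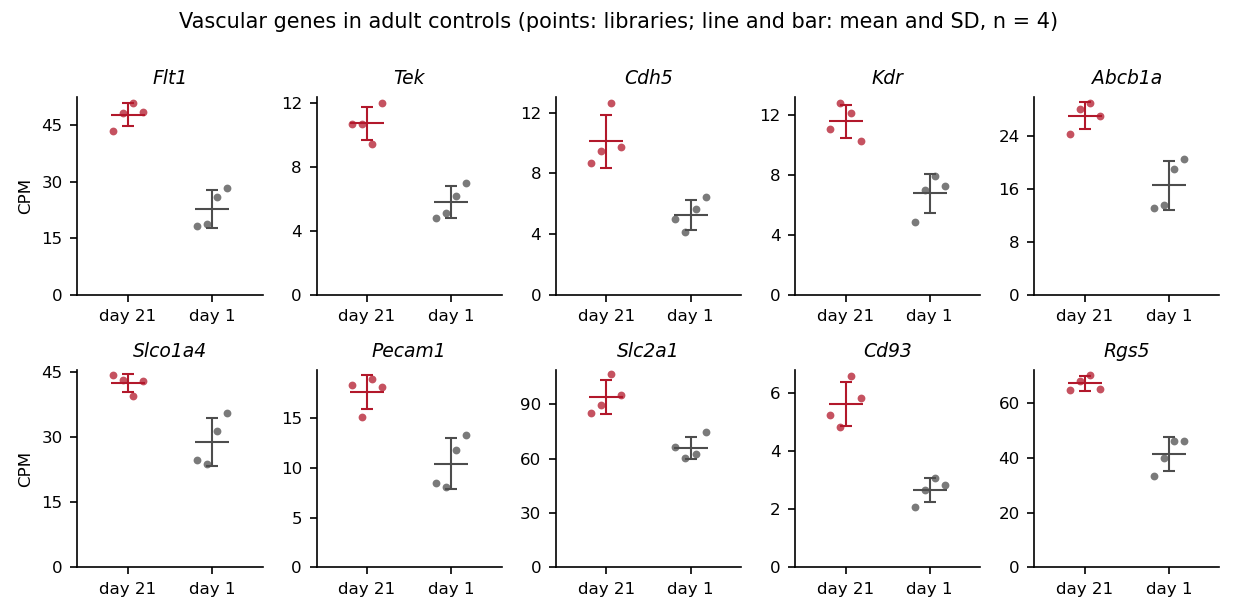
Level of 10 vascular genes, in CPM on linear axes from 0, in adult controls of day 21 (left) and day 1 (right). Points are libraries and the line and bar are the mean and SD of 4 libraries. Flt1 lies at 43.5 CPM or more at day 21 and at 28.2 CPM or less at day 1, and the days are likewise separate in the other panels.

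Of 18 clock repressors and outputs, 4 were higher at day 21 and 0 lower, against 0.639% of tested genes called higher, with a median of 0.17. In the molecular clock the activators Clock and Bmal1 drive Per and Cry genes, whose products repress them, and Per genes are also induced directly by activity and glucocorticoids. Per1 (ENSMUSG00000020893, chromosome 11) was at 138, 145, 127 and 122 CPM in day 21 replicates 1 to 4 and at 81.5, 77.4, 80.4 and 78.6 CPM in day 1 replicates 1 to 4. The days were far apart and each group was tight (log2 difference 0.74 ± 0.11 with an adjusted p of 0.000784 by edgeR's quasi-likelihood test). Per2 had 60.4, 71.1, 73.6 and 71.3 CPM at day 21, against 55.3, 53.4, 53.8 and 47.1 CPM at day 1 (0.40 ± 0.09, adjusted p = 0.0303). Bhlhe40, a repressor of E-box transcription, had 88.4, 99.8, 101 and 93.0 CPM at day 21, against 79.4, 73.7, 61.7 and 63.9 CPM at day 1 (0.46 ± 0.09, adjusted p = 0.00791). Ciart, a further repressor of Clock and Bmal1, had 11, 12, 10.3 and 9.76 CPM at day 21, against 7.69, 7.26, 7.94 and 8.99 CPM at day 1 (0.43 ± 0.11, adjusted p = 0.0438). None of these 4 overlapped between the days. The activators did not pass, with log2 differences of 0.04 for Bmal1 (adjusted p = 0.865) and -0.06 for Clock, nor did the output gene Dbp (0.28, adjusted p = 0.112). The labels give no time of collection, so its part was not tested. Per1 and Bhlhe40 passed in each fit that left out 1 library. Per2 lost its call in 6 of the 8, all but those without replicate 1 of either day, with adjusted p up to 0.0881, and Ciart in 7, all but that without day 1 replicate 4, with adjusted p up to 0.144.

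The windows of Per1 and Ciart, the called clock genes with an E-box there, are shown from RefSeq on GRCm38.p6 with each CACGTG in capitals. The Per1 window lies at chr11:69098699-69098998 on the plus strand and the Ciart window, with 3 matches, at chr3:95882179-95882478 on the minus strand.
Per1: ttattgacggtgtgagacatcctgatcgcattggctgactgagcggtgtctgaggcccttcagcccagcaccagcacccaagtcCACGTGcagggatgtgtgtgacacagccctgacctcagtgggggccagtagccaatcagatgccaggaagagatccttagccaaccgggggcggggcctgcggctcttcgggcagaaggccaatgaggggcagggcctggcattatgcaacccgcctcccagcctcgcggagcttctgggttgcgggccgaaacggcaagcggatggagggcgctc
Ciart: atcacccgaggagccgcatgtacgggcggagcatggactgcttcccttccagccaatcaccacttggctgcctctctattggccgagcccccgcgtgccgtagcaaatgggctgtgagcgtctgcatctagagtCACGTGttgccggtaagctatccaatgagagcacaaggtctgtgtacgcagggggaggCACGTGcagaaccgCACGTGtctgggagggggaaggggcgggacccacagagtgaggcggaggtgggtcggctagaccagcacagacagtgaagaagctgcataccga

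Of 25 glucocorticoid-induced genes 2 were called higher and 0 lower, against 0.639% of tested genes called higher. At an unadjusted p under 0.05, 11 were higher and 2 lower, against 6.7% and 6.2% of tested genes, and the median log2 difference was 0.28. Their summed level was 942.5 to 1083 CPM at day 21 and 784.9 to 937.2 CPM at day 1. These sums include Per1, also on the early and clock gene lists, which averaged 132.8 CPM at day 21 and 79.5 CPM at day 1. The sums did not overlap with Per1 included, but they do without it. The called genes were Per1 and Tiparp, a mono-ADP-ribosyltransferase that is also an aryl hydrocarbon receptor target. Tiparp had 31.6, 34.6, 27.9 and 24.9 CPM at day 21, against 19.6, 19.6, 18.6 and 18.2 CPM at day 1 (0.65 ± 0.16, adjusted p = 0.0468 in edgeR's quasi-likelihood test), and it lost its call in all 8 fits that left out 1 library (adjusted p up to 0.146). Fkbp5, the usual readout of glucocorticoid receptor activity, was at 35.9 to 51.3 CPM at day 21 and 45.2 to 53.5 CPM at day 1 (-0.14, adjusted p = 0.639). Sgk1, a kinase gene of the same kind, was spread over 88.8 to 196 CPM at day 21 and 64.8 to 113 CPM at day 1 (0.65, adjusted p = 0.308). Both genes overlapped between the days. Of 24 cytosolic heat shock genes 2 were called higher and 0 lower, with 9 higher and 2 lower at an unadjusted p under 0.05, a median of 0.11, and sums that overlapped between the days. Dnajb1, an Hsp70 cochaperone, had 91.4, 83.8, 75.6 and 82.2 CPM at day 21, against 69.0, 67.8, 54.5 and 47.8 CPM at day 1 (0.48 ± 0.10, adjusted p = 0.0192), and lost its call without day 1 replicate 3 or 4 (adjusted p up to 0.0606). Hspb1, a small heat shock protein, had 9.48, 9.46, 13.1 and 11.2 CPM at day 21, against 6.28, 4.66, 6.57 and 6.22 CPM at day 1 (0.87 ± 0.22, adjusted p = 0.046), and lost its call in 7 fits, all but that without day 21 replicate 1 (adjusted p up to 0.151). The strongly inducible Hspa1a overlapped between the days, at 21.7 to 33.1 CPM at day 21 and 19.0 to 22.1 CPM at day 1 (0.33, adjusted p = 0.295). The Hspb1 window from RefSeq (GRCm38.p6, chr5:135887669-135887968, plus strand) is shown with both GAANNTTC matches in capitals, the inverted repeat that heat shock factor binds.
Hspb1: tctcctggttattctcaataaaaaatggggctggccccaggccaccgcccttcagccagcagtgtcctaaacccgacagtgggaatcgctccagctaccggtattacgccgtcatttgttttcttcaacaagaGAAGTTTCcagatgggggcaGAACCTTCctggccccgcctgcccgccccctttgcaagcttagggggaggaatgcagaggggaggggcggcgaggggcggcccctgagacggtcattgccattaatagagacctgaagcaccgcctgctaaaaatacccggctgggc

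Smaller differences were found in regulators and receptors. Of 36 histone and DNA modifying enzyme genes 3 were higher and 0 lower, against 0.639% and 0.219% of tested genes, with a median of 0.04. Kdm6b, a histone H3 demethylase gene that responds to activity in neurons, had 53.4, 50.1, 48.1 and 49.997 CPM at day 21, against 38.4, 36.1, 35.3 and 33.6 CPM at day 1 (0.49 ± 0.09, adjusted p = 0.00644 in edgeR's quasi-likelihood test). Setdb1, a histone methyltransferase, rose by 0.21 (adjusted p = 0.0377), and Hdac5, a histone deacetylase whose location follows neuronal activity, by 0.22 (adjusted p = 0.0422). The days did not overlap in these 3 genes, but Setdb1 lost its call in 5 and Hdac5 in 6 of the fits that left out 1 library, with adjusted p up to 0.0971 and 0.11. Receptor and channel lists had 1 member called at most. Vipr1, a receptor of vasoactive intestinal peptide, had 27.4, 28.9, 25.9 and 27.8 CPM at day 21, against 21.4, 22.8, 22.0 and 21.4 CPM at day 1 (0.33 ± 0.06, adjusted p = 0.00634). The muscarinic receptor gene Chrm4 rose by 0.43 (adjusted p = 0.022) and the potassium channel gene Kcnh3 by 0.22 (adjusted p = 0.0495). Grm4, a metabotropic glutamate receptor gene, rose by 0.40 (adjusted p = 0.0438), with 1 day 21 library, replicate 1 at 37.2 CPM, below the highest day 1 library. Chrm4 lost its call in 4 of the 8 fits, Kcnh3 in 6 and Grm4 in 6, with adjusted p up to 0.0757, 0.142 and 0.121.

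Other higher genes with small p-values belonged to no list. Cacng5, an auxiliary subunit of AMPA receptors, had 25.3, 23.1, 24.2 and 27.7 CPM at day 21, against 19.8, 19.2, 18.4 and 17.5 CPM at day 1 (0.42 ± 0.07, adjusted p = 0.00283 in edgeR's quasi-likelihood test). Patl1, an mRNA decapping factor, had 28.2 to 29.3 CPM at day 21 and 22.0 to 24.5 CPM at day 1 (0.30 ± 0.05, adjusted p = 0.00283). Shkbp1, a protein bound to an endocytic adaptor, had 40.4 to 44.2 CPM at day 21 and 28.4 to 32.9 CPM at day 1 (0.42 ± 0.07, adjusted p = 0.00289). Eif4ebp2, the main repressor of cap-dependent translation in brain, had 73.1 to 79.3 CPM at day 21 and 60.3 to 63.4 CPM at day 1 (0.31 ± 0.05, adjusted p = 0.00361). In these 4 genes the differences were small but larger than the spread within either day. Jmjd6, a nuclear hydroxylase, rose by 0.39 (adjusted p = 0.004) and Ccdc117 by 0.66 (adjusted p = 0.00433). The largest differences among genes called higher and averaging at least 1 CPM were those of the gene model Gm28557, at 2.70 to 4.96 CPM at day 21 and 0.164 to 1.80 CPM at day 1 (2.20 ± 0.54, adjusted p = 0.0422), and of Tmem252, a membrane protein gene at 2.28 to 4.26 CPM at day 21 and 0.610 to 1.58 CPM at day 1 (1.47 ± 0.28, adjusted p = 0.00679). Gm28557 lost its call in 6 of the 8 fits that left out 1 library (adjusted p up to 0.117), and the other 7 genes named here passed in each of them.

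Of the members of all 41 lists, 1 gene, Cirbp, was called lower, so the lower genes with the smallest p-values and the largest changes are given singly. The median size of the difference over all 52 lower genes was 0.42 on the log2 scale. Tfrc (ENSMUSG00000022797, chromosome 16), the transferrin receptor that brings iron into cells, had the smallest p of them. It was at 68.9, 75.5, 74.1 and 77.9 CPM in day 21 replicates 1 to 4 and at 86.4, 101, 96.9 and 100.3 CPM in day 1 replicates 1 to 4. The days did not overlap (log2 difference -0.37 ± 0.06 with an adjusted p of 0.002 by edgeR's quasi-likelihood test). Tfrc was lower at day 21 in adolescent controls too (-0.31, adjusted p = 0.00666). Bmf, a proapoptotic relative of Bcl2, had 2.35, 2.43, 2.19 and 1.96 CPM at day 21, against 4.72, 3.54, 3.07 and 4.09 CPM at day 1 (-0.79 ± 0.14, adjusted p = 0.00475). Xpo4, a nuclear transport receptor, had 17.0 to 18.2 CPM at day 21 and 21.4 to 21.9 CPM at day 1 (-0.31 ± 0.06, adjusted p = 0.00634). Tfrc, Bmf and Xpo4 passed in each fit that left out 1 library. Cirbp, the cold-inducible RNA-binding protein, had 39.2, 33.5, 41.1 and 34.0 CPM at day 21, against 43.7, 43.0, 47.9 and 57.2 CPM at day 1 (-0.38 ± 0.08, adjusted p = 0.021). Its days did not overlap, and it lost its call without day 21 replicate 2 or 4 or day 1 replicate 3 or 4, with adjusted p up to 0.107.

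Pik3cg, a phosphoinositide kinase catalytic subunit best known from immune cells, had 2.91, 3.03, 3.20 and 2.94 CPM at day 21, against 4.04, 4.58, 5.39 and 5.28 CPM at day 1 (-0.67 ± 0.14, adjusted p = 0.0146 in edgeR's quasi-likelihood test). Slc43a3, a purine base transporter, was low in both groups, at 0.704, 0.367, 0.383 and 0.309 CPM at day 21 and 1.56, 2.02, 1.09 and 1.11 CPM at day 1 (-1.71 ± 0.35, adjusted p = 0.0117). Both genes were lower in every day 21 library than in any day 1 library. The amino acid transporter gene Slc36a4 differed by -0.19 (adjusted p = 0.0203), the centrosomal gene Lrrcc1 by -0.35 (adjusted p = 0.0153), the intraflagellar transport gene Ift70b by -0.41 (adjusted p = 0.021) and the glycosyltransferase gene Gcnt1 by -0.70 (adjusted p = 0.0203). The zinc finger genes Zfand4 and Zc3h6 differed by -0.67 (adjusted p = 0.0111) and -0.44 (adjusted p = 0.0153). Without day 21 replicate 2, Zfand4 lost its call (adjusted p = 0.059), and without day 21 replicate 4, Slc43a3 did (0.0541). Pik3cg and Lrrcc1 lost theirs without day 21 replicate 4 or day 1 replicate 3, with adjusted p up to 0.0548 and 0.0698. Slc36a4 and Ift70b lost theirs in 3 of the 8 fits that left out 1 library, with adjusted p up to 0.091 and 0.105, and Gcnt1 and Zc3h6 in 4, with adjusted p up to 0.064 and 0.0602. The largest fall among called genes averaging at least 1 CPM was that of Zfp708, a KRAB zinc finger gene with close relatives. It was at 2.13, 1.57, 0 and 0.280 CPM at day 21 and 4.80, 4.85, 3.75 and 3.65 CPM at day 1 (-2.10 ± 0.46, adjusted p = 0.022). Reads shared with such relatives make its level uncertain, and it lost its call without day 21 replicate 4 or day 1 replicate 1 (adjusted p up to 0.0822). The other large falls were those of Hhex, a homeobox factor (-0.87, adjusted p = 0.0427), and the gene models Gm43254 (-0.88, adjusted p = 0.0362) and Gm4876 (-0.88, adjusted p = 0.0438), which lost their calls in 6, 7 and 6 of the 8 fits.

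Markers of glia and of the ventricular lining varied between libraries without passing. None of 28 oligodendrocyte and myelin genes was called, but all 28 had a difference below 0, 13 of them with an unadjusted p under 0.05, and the median was -0.37. Over all tested genes 6.2% were lower at an unadjusted p under 0.05, the share to set beside each list of this paragraph. Their sum was 10733, 9688, 6636 and 5348 CPM in day 21 replicates 1 to 4, against 10539.5, 9734, 9053 and 13693 CPM in day 1 replicates 1 to 4. Day 21 replicates 3 and 4 were low and day 1 replicate 4 was high, while the other libraries overlapped. Mbp, the myelin basic protein gene, differed by -0.37 ± 0.18 (adjusted p = 0.379 in edgeR's quasi-likelihood test). The same list had medians of -0.59 in adolescent controls, where 7 members were called lower, and -0.46 in defeated adults. The 20 genes of oligodendrocyte precursors and new oligodendrocytes also had 0 calls, with 18 below 0, 7 of them lower at an unadjusted p under 0.05, and a median of -0.12. Their sum was 1179, 1146, 1137 and 1094 CPM in day 21 replicates 1 to 4, against 1219, 1253, 1291 and 1337 CPM in day 1 replicates 1 to 4, so the sums of the days did not overlap. Tnr, the tenascin R matrix gene, averaged 177 CPM at day 21 and 209 CPM at day 1 (-0.24 ± 0.06, adjusted p = 0.0661). Medians of this list were -0.05 in adolescent controls and -0.14 in defeated adults. Of 18 ependymal and ciliary genes 0 were called and 11 were lower at an unadjusted p under 0.05 (median -0.92), with sums of 43.2 to 95.8 CPM at day 21 and 73.1 to 129 CPM at day 1. Of 18 choroid plexus markers 0 were called and 1 was lower at an unadjusted p under 0.05 (median -1.92), and day 1 replicate 1 alone, at 4067 CPM against 163 to 909 CPM in the day 21 libraries and 240.2 to 304.6 CPM in the other day 1 libraries, was far above the rest. Without that library the choroid plexus median was 0.97, and without the libraries above 100 CPM of Ttr it was 0.10, so its sign rested on single libraries. The medians of the oligodendrocyte, precursor and ependymal lists were below 0 in each alternative fit. The part of these markers in the immediate early and endothelial differences was not tested.

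The remaining cell type lists gave 0 calls each by edgeR's quasi-likelihood test, against 0.858% of tested genes. The median log2 difference was 0.07 for 27 pallial excitatory neuron markers, whose sum was 7219 to 7905 CPM at day 21 and 6972 to 7712 CPM at day 1. It was 0.13 for 26 striatum and central amygdala markers, 0.02 for 27 interneuron markers, -0.02 for 28 microglia and complement genes and -0.09 for 26 astrocyte markers. It was 0.04 for 19 markers of cortical layers, claustrum and endopiriform nucleus, 0.01 for 23 thalamus and hypothalamus markers and -0.16 for 25 meningeal fibroblast and collagen genes. It was -0.02 for 28 immature neuron and migration genes and -0.19 for 20 cell cycle genes. In each list named in this paragraph the summed levels of the days overlapped. At an unadjusted p under 0.05, 4 immature neuron genes and 4 cell cycle genes were lower, and the other lists held at most 3 members in a direction. Over all tested genes 6.7% were higher and 6.2% lower at that p. Sst, the somatostatin gene of a class of interneurons, was at 217 to 259 CPM at day 21 and 199.7 to 221 CPM at day 1 (0.24 ± 0.07, adjusted p = 0.109). Crh, the corticotropin-releasing hormone gene, was at 4.31 to 6.33 CPM at day 21 and 4.15 to 6.10 CPM at day 1 (0.03 ± 0.17, adjusted p = 0.966). Dcx, a marker of immature neurons, was at 7.66 CPM in day 21 replicate 1, against 35.8 to 37.2 CPM in the other day 21 libraries and 36.3 to 41.9 CPM in the day 1 libraries.

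**Figure D4:**
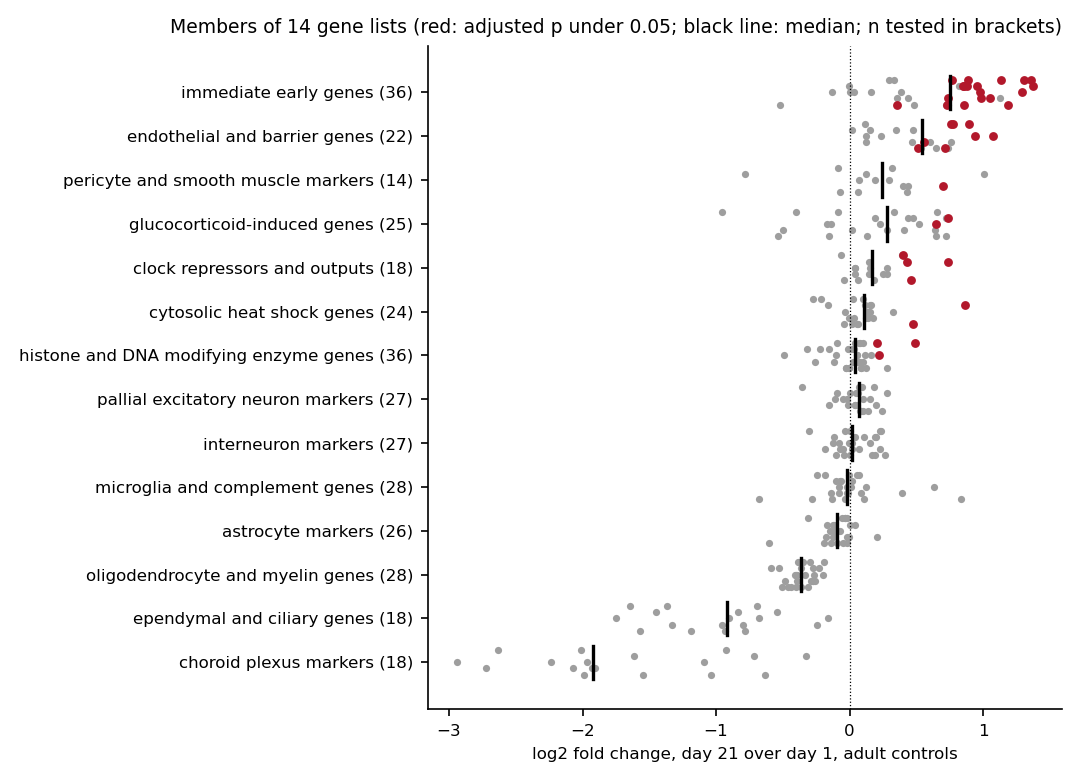
Log2 fold change of day 21 over day 1 in adult controls (horizontal axis) for the members of 14 gene lists (rows, with the number tested in brackets). Red points passed an adjusted p under 0.05, grey points did not, and black lines are list medians, which run from 0.75 for immediate early genes and 0.54 for endothelial genes to -1.92 for choroid plexus markers.

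The genes called in the adult controls were followed in the other day comparisons. Of the 152 genes higher at day 21, 4 (2.63%) were called higher in adolescent controls, against 79 of all tested genes (0.332%), and 0 were called lower. In defeated adults 0 of them were called higher, against 46 of all tested genes (0.193%), and 1 (0.658%) was called lower, against 98 (0.412%). Of the 52 lower genes, 4 (7.69%) were called lower in adolescent controls, against 141 of all tested genes (0.593%), and 0 higher. In defeated adults 2 (3.85%) were called higher and 0 lower. No test was made of these shares. Several genes outside the early gene list differed between the day effects. These are compared with their signs, so a fall counts as smaller than a rise. Vipr1 had the larger day effect in adult controls than in adolescent controls, by 0.56 (adjusted p = 0.00466 in edgeR's quasi-likelihood test), and Pik3cg the smaller one, by -0.95 (adjusted p = 0.046). Bcorl1, a transcriptional corepressor gene, differed by 0.54 (adjusted p = 0.0224) and Smurf1, a ubiquitin ligase gene, by 0.44 (adjusted p = 0.00125), where the day difference of Smurf1 itself was -0.32 in adolescent controls (adjusted p = 0.00052) and 0.13 in adult controls (adjusted p = 0.166). Hspa5, a chaperone of the endoplasmic reticulum, differed by -0.50 (adjusted p = 0.0492), with 399 to 427 CPM at day 21 and 369 to 502 CPM at day 1 in adult controls. Against defeated adults, Dnajb1 had a day effect larger by 0.92 in adult controls (adjusted p = 0.00201), and Ccdc117 one larger by 1.08 (adjusted p = 0.00151). Zc3h6, which was higher at day 21 in defeated adults (0.45, adjusted p = 0.0237), had one smaller by -0.89 in adult controls (adjusted p = 0.000918).

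Transcript GC content moved with the calls. The genes called higher had a median GC content of 55.3% in their longest annotated transcript (GENCODE M21), the genes called lower 44.4%, and all tested genes 49.2%, with a value for 96.3% of tested genes. The immediate early genes stood at 54.3% and the endothelial genes at 50.3%. The 125 genes called higher that are in neither of these lists stood at 55.5%. Over tested genes the rank correlation of GC content with the log2 difference was 0.19 in adult controls, -0.07 in adolescent controls and 0.03 in defeated adults; genes are not independent replicates, and no p is given. The share called higher was 0.0588% of genes under 40% GC and 2.08% of genes at 60% GC or more, and the share called lower was 0.588% and 0% in the same bins. For each library, the deviation of each gene from its mean log2 CPM over all 32 libraries was fitted on GC content. The slope, in log2 per 10 percentage points, was -0.000158 to 0.0384 in the 4 day 21 libraries and -0.0764 to -0.0149 in the 4 day 1 libraries. With a smooth GC correction per library, an alternative added after seeing the data, 127 genes were called in place of 204. The immediate early genes then had 18 of 36 called higher and the endothelial genes 6 of 22.

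**Figure D5:**
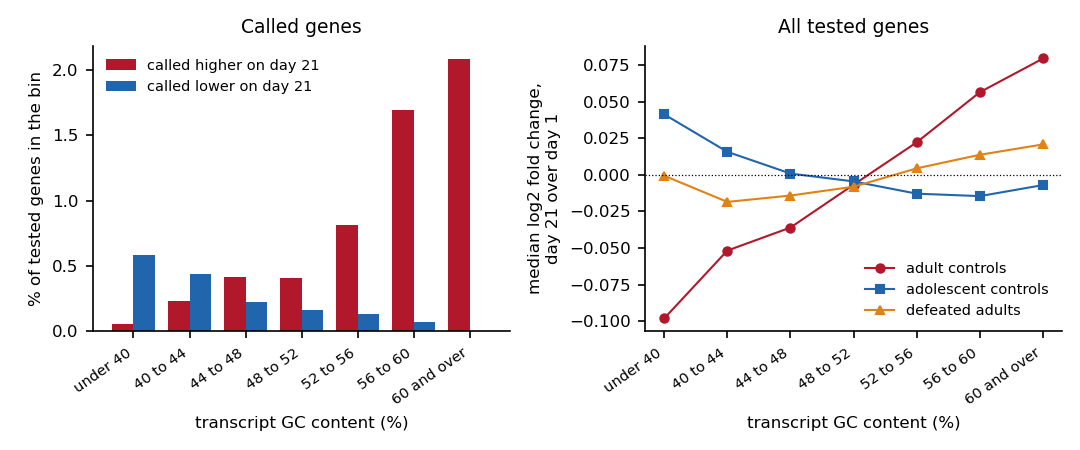
Left, share of tested genes called higher or lower at day 21 in adult controls (vertical axis, %) in 7 bins of transcript GC content (horizontal axis, %). Right, median log2 fold change of day 21 over day 1 in the same bins for adult controls (circles), adolescent controls (squares) and defeated adults (triangles), which in adult controls runs from -0.10 under 40% GC to 0.08 at 60% GC or more.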

How the data were processed

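Polyadenylated RNA was sequenced in 32 libraries, and the deposited table holds, for 40392 mouse genes, raw read counts made by the authors and FPKM values (fragments scaled by gene length and library size) that the authors computed. Per the submitters' processing notes, cutadapt 1.9, HISAT2 2.0.4, StringTie 1.3.4d and edgeR without a version were used, and the notes name hg38 although the identifiers are mouse ones; the build of the table's positions, the settings and whether counting used strand are not given in the sources used here, so positions from the table are not printed, and genes with an antisense or closely related neighbour are uncertain. All 64 columns of per-library values matched samples by name. The FPKM values served as an alternative scale and filter.

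Tests on the counts used edgeR 4.0.16 under R 4.3.3. Its default expression filter over the 8 groups kept 23778 genes with 99.975% of counts, libraries were scaled by TMM, and 1 fit of 8 group means (24 residual degrees of freedom, common biological coefficient of variation 0.185) gave each contrast by a quasi-likelihood F test, 2-sided, with Benjamini-Hochberg adjustment over all tested genes and a threshold of 0.05. A standard error was taken from the F statistic, as the size of the log2 difference over the root of F. The 5 comparisons were the day effect in adult controls, adolescent controls and defeated adults, and the adult control day effect minus each of the other 2. All 8 adult control libraries were used, with 4 in each group.

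The libraries, the 41 gene lists and the tests were chosen with earlier results of these data known. Named genes are the 12 higher and 12 lower with the smallest adjusted p, the 4 higher and 4 lower with the largest change among those averaging at least 1 CPM, up to 3 passing members of each list, a set of genes always given, and up to 5 in each direction for each difference between day effects; other members and genes are named after their values were seen, and the leading genes of the other 2 day comparisons are not named. Alternatives were upper quartile and DESeq2 1.42.0 scaling, no filter, a mean FPKM of at least 5, DESeq2, limma 3.58.1 on log2(FPKM + 0.1) and log2(FPKM + 1), limma with library weights, a fit of just the groups in question, a block for replicate number, single libraries left out, all libraries above 100 CPM of Ttr left out, other thresholds, and a GC correction. Replicate numbers were not treated as pairs in the main fit, and whether they pair the libraries was not settled. The 8 libraries held 63736712 to 70774460 counts, and with 4 libraries in a group the spread between them, more than the count, limits the precision of a well expressed gene.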

Additional observations from a re-analysis of the deposited data

Results flagged for a closer look

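In 14 of 266 groups of 4 libraries, counted over named genes and list sums, 1 library lay far from the other 3 by Dixon's test at the 95% level, and chance alone marks about 1 in 20 such groups. Among genes these were Egr1 in day 1 replicate 4 (201.8 CPM), Xpo4 in day 1 replicate 3 (21.4 CPM), Gcnt1 in day 1 replicate 4 (3.57 CPM), and Ttr in day 1 replicate 1 (2342 CPM). In day 21 replicate 1 they were Gm28557 (2.70 CPM), Grm4 (37.2 CPM) and Dcx (7.66 CPM). The other 7 adult control libraries held 35.8 CPM of Dcx or more. Among summed list levels, day 21 replicate 2 stood out in immediate early genes (3057 CPM), day 21 replicate 1 in ependymal genes (95.8 CPM) and potassium channel genes (3122 CPM), and day 21 replicate 4 in histone and DNA modifying enzyme genes (3118 CPM). Day 1 replicate 1 stood out in choroid plexus markers (4067 CPM), cholesterol and fatty acid synthesis genes (4213 CPM) and p53 target genes (509 CPM). Whether anything beyond chance set these libraries apart was not tested.

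The day effect of adult controls differed from that of adolescent controls past an adjusted p of 0.05, by edgeR's quasi-likelihood test of the difference, in these named genes, as log2 differences of adult minus adolescent. With signs kept, the effect was larger in adult controls for Ier2 (1.45), Egr4 (0.90), Per1 (0.71), Vipr1 (0.56), Bcorl1 (0.54), Prickle1, a planar polarity gene (0.52), and Smurf1 (0.44). It was smaller for Pik3cg (-0.95), the histone gene H2bc21 (-0.66), Sox9, a glial transcription factor gene (-0.59), Hspa5 (-0.50) and the glycosyltransferase gene C1galt1 (-0.40). Smurf1 fell in adolescent controls and did not pass in adult controls, while Pik3cg and C1galt1 were themselves called lower in adult controls.

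The day effect of adult controls differed from that of defeated adults, by the same test, in more of the named genes. Signs are kept here too. Among immediate early genes the log2 difference of control minus defeat was 2.19 for Egr2, 2.09 for Fos, 1.68 for Arc, 1.599 for Ccn1, 1.47 for Egr4, 1.40 for Junb, 1.36 for Ier2, 1.31 for Nr4a3, 1.29 for Npas4, 1.25 for Sik1, 1.23 for Egr1, 1.19 for Nr4a1, 1.14 for Fosb, 1.09 for Fosl2, 0.87 for Gadd45b and 0.38 for Egr3. Among clock and stress genes it was 1.18 for Tiparp, 1.16 for Per1, 0.92 for Dnajb1, 0.72 for Per2, 0.72 for Ciart, 0.69 for Bhlhe40 and 0.51 for Dbp. Other genes with the larger day effect in adult controls were Tmem252 (1.81), Ccdc117 (1.08), Irf9 (0.82), Kdm6b (0.65), Prickle1 (0.45), Bcorl1 (0.45), Jmjd6 (0.43), Vipr1 (0.40), Patl1 (0.36), Eif4ebp2 (0.35), Hdac5 (0.32) and Setdb1 (0.30). The signed day effect was smaller in adult controls for Hhex (-1.27), Zc3h6 (-0.89), Zfand4 (-0.88), the transcription factor gene Zfp143 (-0.65), Atosa (-0.57), Ccsap (-0.48) and Ppp1r10 (-0.41). All of these but Zfp143 and Ppp1r10 were themselves called lower at day 21 in adult controls.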

How the results depend on the processing

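The 204 calls in adult controls became 117 without a filter, 551 with DESeq2, 5 and 3 with limma on log2(FPKM + 0.1) and log2(FPKM + 1), 90 in a fit of only these groups, 24 without libraries above 100 CPM of Ttr, 415 by unadjusted p and a 2-fold size, 8 against a fold of 1.2 and 127 with the GC correction, and 88 to 315 with 1 library left out. Of the 204, 198 were among the 551 of DESeq2 and 23 among the 24. With the replicate block 189 were called, and 36 in a replicate block fit of only these groups. After the group mean of each gene was subtracted from its log2 CPM, same-numbered libraries of the days correlated at 0.008 to 0.063. Differently numbered ones correlated at -0.083 to 0.069. Such values near 0 cannot settle whether the numbers pair the libraries. The 220 calls in adolescent controls became 125 without a filter, 579 with DESeq2, 1 and 1 with limma, 48 with the replicate block in only their groups, 29 without high Ttr, 1 against a fold of 1.2 and 59 to 204 with 1 library left out. The 144 calls in defeated adults became 47 without a filter, 594 with DESeq2, 10 and 9 with limma, 2 in only their groups, 0 with the replicate block there, 1 without high Ttr, 437 unadjusted, 1 against a fold of 1.2 and 18 to 179 with 1 library left out. The 27 differences from adolescent controls became 17 with upper quartile scaling, 6 without a filter, 220 with DESeq2, 0 with either limma fit, 108 with library weights, 4 in only their groups and 0 with the replicate block there, 0 without high Ttr, 447 unadjusted, 0 against a fold of 1.2, 9 with the GC correction and 4 to 50 with 1 library left out. The 148 differences from defeated adults became 94 without a filter, 295 with DESeq2, 14 and 14 with limma, 97 in only their groups, 91 with the replicate block there, 36 without high Ttr, 560 unadjusted, 14 against a fold of 1.2 and 85 to 269 with 1 library left out. The cause of these shifts was not tested. Genes that never passed changed sign in places. Hspa5 was at 0.00094 with limma on either scale, 0.026 with the GC correction, 0.082 without high Ttr, and -0.060 to 0.091 with 1 library left out, above 0 without day 21 replicate 1 or day 1 replicate 1. Crh was at -0.16 without high Ttr and at -0.074 to 0.15 with 1 library left out, below 0 without day 21 replicate 3 or day 1 replicate 1 or 2. Ttr was at 1.52 without high Ttr and at -4.30 to 3.597 with 1 library left out, above 0 without day 1 replicate 1, and Bdnf at -0.23 to 0.0017, above 0 without day 21 replicate 1. Of 72 named genes that passed, 34 passed in each of the 8 fits that left out 1 library. The number of libraries, 4 in each group, limits which small differences can pass, and day cannot be told apart from batch.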
